A study of Homo sapiens with 4 samples.

Results

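The mRNAs examined here encode 5 intermediate filament proteins, namely the medium, light and heavy neurofilament chains (NEFM, NEFL and NEFH), alpha-internexin (INA) and vimentin (VIM). They were taken by gene name from the 62700 genes of the GENCODE 44 annotation of GRCh38, by a rule that uses names and no measured value, although earlier results of these data were known when the family was picked. Crosslinking to PR100 was measured in 4 iiCLIP libraries of a single condition. HEK293T, a transformed line from human embryonic kidney, was transiently transfected with a plasmid encoding PR100-3xFLAG, the tagged proline-arginine dipeptide repeat made from the expanded C9orf72 repeat of ALS and frontotemporal dementia. Doxycycline at 150 ng/ml switched on the construct for 24 h, and the cells then received UV light of 254 nm at 160 mJ/cm2. In iiCLIP the cDNA ends where the crosslinked peptide blocks reverse transcription, so each unique cDNA marks 1 nucleotide of contact and is called an event here. PR100-RNA complexes were purified by SDS-PAGE in replicates 1 to 3 and on beads in replicate 4.

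The libraries held between 125694 and 604816 events, those of replicates 3 and 4 being fewer than the minimum that the study's methods set for a library, and all values in CPM are events scaled to the total events of their library. Replicate 3 was the shallowest, carried a random barcode of 5 nt where the others carried 7 nt, and stood apart in how its events were stacked. It held 2.16 cDNAs per crosslinked position, against 1.15 to 1.67 in the other libraries, and its 103 exonic events on NEFM lay on 24 positions. The source labels do not say whether the libraries came from separate cultures, so the spread between them may be partly technical. Libraries of the FLAG control, of GA100 and of cells without crosslinking were not analysed here. Events do not measure expression, and since mRNA levels were not measured, a more abundant message and more contacts per message cannot be told apart, nor can fewer cells and less RNA per cell.

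Intermediate filament proteins share a plan of 3 parts, a head, an alpha-helical rod that pairs into coiled coils, and a tail. The rod starts and ends in short motifs that are conserved across the family, whereas heads and tails differ. The neurofilament chains and alpha-internexin build the filaments of axons, with long, charged tails on the medium and heavy chains that carry phosphorylated Lys-Ser-Pro (KSP) repeats. Vimentin forms the filaments of mesenchymal cells and of many cultured lines. Neurofilament tails are rich in glutamate, whose codons are GAA and GAG.

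The motif followed along these messages was GANGA on the message strand, which covers GAAGA and also its forms GAGGA and GACGA, with overlapping matches counted separately. The study found GAAGA enriched at the crosslink sites of its PR100 iiCLIP data, and showed NEFM as an example of sites near GANGA. The motif was thus taken from the same experiment, and values near motifs describe where events lie rather than test the motif independently. The windows below show coding sequence of GRCh38 from the plus strand, written 5′ to 3′, with GANGA motifs in capitals. The first 6 were chosen because they hold both INA positions with 3 events and 4 of the 7 VIM positions with 3 or more, each from 1 library and with the crosslinked base as the sixth base of the line, and the last 2 are the stretches densest in GANGA motifs in the NEFH and INA tails, where no event was found.
VIM head, chr10:17229614-17229643: ctcctctgccgtgcgcctgcggagcagcgt
VIM rod, chr10:17229859-17229888: tgggggacctctacGAGGAGGAgatgcggg
VIM rod, chr10:17229952-17229981: acctggccGAGGAcatcatgcgcctccggg
VIM rod, chr10:17234778-17234807: tgcagtccctcacctgtgaagtggatgccc
INA rod, chr10:103278045-103278074: gaacctgcagtccgcgGAAGAatggtacaa
INA head, chr10:103277451-103277480: ggcggcgcgcaccaacgagtacaagatcat
NEFH tail, chr22:29489089-29489118: caagGAGGAAGAagggggtGAAGAAGAGGA
INA tail, chr10:103288501-103288530: atcacttaagaaaGAGGAGGAGGAGGAGGA

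The members differed widely in crosslinking. NEFM (ENSG00000104722, chr8:24913758-24919098, plus strand, 3 exons) held 286, 697, 108 and 335 events in replicates 1 to 4, or 1426 in all, and its canonical transcript had 253.5, 352, 251 and 563 exonic CPM per kb in replicates 1 to 4. This corresponds to 355 ± 147 CPM per kb (SD, n = 4), with replicate 4 highest. NEFM was the transcript with the third-highest density of pooled exonic events per kb among 19983 canonical coding transcripts, and it ranked 7 to 12 by events among all genes in the single libraries. It was the only member with at least 200 pooled events, a mark passed by 2.62% of the 29263 genes with any event.

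NEFL (ENSG00000277586, chr8:24950955-24956721, minus strand, 4 exons), which encodes the chain on which the medium and heavy chains assemble, held 23, 86, 10 and 46 events in replicates 1 to 4. Its density was 37.3 ± 23.5 CPM per kb (SD, n = 4), again highest in replicate 4, at 69.9. VIM (ENSG00000026025, chr10:17228241-17237593, plus strand, 10 exons) held 25, 48, 6 and 26 events, with a density of 35.2 ± 13.6 CPM per kb (SD, n = 4). NEFL and VIM ranked 213 and 225 by pooled density among the coding transcripts.

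INA and NEFH lay at the lower end. INA (ENSG00000148798, chr10:103277138-103290346, plus strand, 3 exons) held 4, 1, 3 and 1 events, all exonic, or 3.31 ± 2.99 CPM per kb (SD, n = 4), and replicates 2 and 4 were below the 3 events that a count of 0 allows. Without replicate 3, whose 3 INA events lay on 1 position, the CPM of the whole gene fell from a mean of 10.8 to 6.40. NEFH (ENSG00000100285, chr22:29480218-29491390, plus strand, 4 exons) had no exonic event in any library and 1 event outside its exons, in replicate 1. A count of 0 allows up to 8.98, 4.96, 23.9 and 16.7 CPM on the whole NEFH message in replicates 1 to 4, and 2.41 CPM over the pooled libraries. These limits and the intervals given for single libraries cover counting error only. They treat each event as independent, so they may be too narrow where events are stacked on a position. NEFM, NEFL, INA and VIM had events in each of the 4 libraries, as did 32.9% of the genes with any event.

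**Figure D1:**
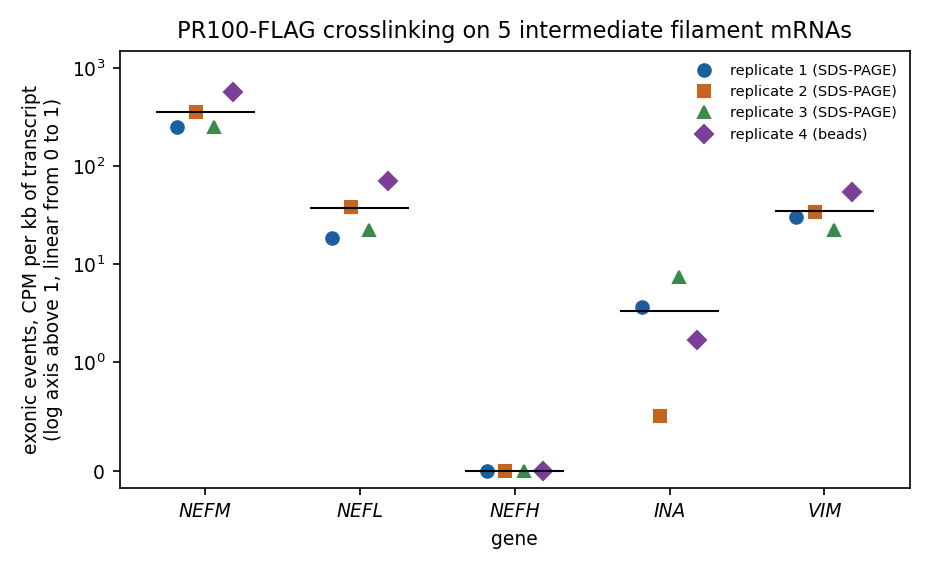
Exonic events of the 5 messages in CPM per kb of canonical transcript (vertical axis, logarithmic above 1 and linear from 0 to 1), with 1 symbol per library and a bar at the mean. NEFM lies between 251 and 563 in every library, NEFL and VIM overlap, INA is at or below 7.34, and NEFH is at 0 throughout.

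The order of densities within the libraries was NEFM first, then NEFL and VIM without a consistent order. The log2 difference in density between NEFM and NEFL was 3.76, 3.18, 3.43 and 3.00 in replicates 1 to 4, a mean of 3.34 ± 0.33 (SD, n = 4) or 10.1-fold, in the same direction in 4 of 4 libraries (two-sided exact permutation of signs, p = 0.13, as low as 4 libraries can reach). The difference between NEFM and VIM was 3.28 ± 0.17 (SD, n = 4) or 9.72-fold, above 0 in 4 of 4 libraries (exact permutation p = 0.13). NEFL and VIM differed by -0.060 ± 0.48 on the same scale, with NEFL above VIM in 2 of 4 libraries (exact permutation p = 0.875), which was within the spread between libraries. INA and NEFH were too sparse for such a ratio.

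Events on these messages lay mostly in coding sequence. In NEFM, 260, 669, 95 and 320 events were coding in replicates 1 to 4, which is 92.6% ± 3.84 (SD, n = 4) of its events, against 51 pooled events in the 3′ UTR, 13 in the 5′ UTR and 18 outside exons. Per length, the pooled densities of NEFM were 489 events per kb in the coding sequence, 104 in the 3′ UTR, 394 in the short 5′ UTR of 33 nt and 8.70 outside exons. The coding share was 82.6% ± 14.2 in NEFL and 75.3% ± 20.4 in VIM (SD, n = 4), where single libraries ranged from 65.2% to 100% and from 50% to 100%. Among 1651 coding transcripts with at least 50 pooled exonic events, the median coding share of exonic events was 79.0%, and the pooled shares of NEFM, NEFL and VIM were 95.5%, 83.2% and 79.6%. NEFL held 12 pooled events in a 5′ UTR of 97 nt, of which 9 came from replicate 2.

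Head, rod and tail were separated at the conserved motifs found in the translated transcripts, which gave rods of 298 to 306 codons in all 5 members. The tail took 1524 of the 2748 coding nt of NEFM and 441 of the 1629 of NEFL, but 177 of the 1398 of VIM. In NEFM, the head held 19, 28, 8 and 12 events in replicates 1 to 4, the rod 47, 158, 27 and 60, and the tail 194, 483, 60 and 248. The tail was the densest part in every library, and its pooled density of 646 events per kb exceeded those of the rod, 323, and of the head, 209. It took 74.6% (95% exact Clopper-Pearson interval 68.9 to 79.8%) of the coding events in replicate 1, 72.2% (68.6 to 75.6%) in replicate 2, 63.2% (52.6 to 72.8%) in replicate 3 and 77.5% (72.5 to 82.0%) in replicate 4. The tail made up 55.5% of the coding length, a value that lies below the intervals of replicates 1, 2 and 4 and inside that of replicate 3.

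The log2 ratio of tail to rod density in NEFM, with 0.5 added to each count, was 1.28, 0.85, 0.38 and 1.28 in replicates 1 to 4. The mean of 0.95 ± 0.43 (SD, n = 4) corresponds to a 1.93-fold higher density in the tail, in 4 of 4 libraries (exact permutation p = 0.13). Without replicate 3 the mean was 1.14. The head did not differ from the rod beyond the spread between libraries, with a log2 ratio of -0.44 ± 0.54 (SD, n = 4) that was above 0 in 1 of 4 libraries (exact permutation p = 0.375).

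NEFL, whose tail is shorter, had 2, 4, 0 and 3 events in the head, 5, 27, 4 and 14 in the rod and 8, 40, 6 and 21 in the tail in replicates 1 to 4. The tail held more events than the rod in every library although it is less than the rod in length, and it took 56.2% ± 2.80 (SD, n = 4) of the coding events with 27.1% of the coding length. The log2 ratio of tail to rod was 1.66, 1.59, 1.56 and 1.60, a mean of 1.60 ± 0.041 (SD, n = 4) or 3.03-fold, in 4 of 4 libraries (exact permutation p = 0.13). This spread was narrower than the counting error of single libraries, since the share of the tail in replicate 1 had an interval of 26.6 to 78.7% and the 10 exonic events of replicate 3 lay on 2 positions. With the rod lengthened by 10 codons at each end the mean was 0.52 ± 2.46, above 0 in 3 of 4 libraries (exact permutation p = 0.625), since the 6 events of replicate 3 at codon 405 then fell in the rod, which ends at codon 396. With the highest position of each part left out it was 2.32. The head-to-rod ratio of NEFL was -0.60 ± 0.87 (SD, n = 4) on the log2 scale (exact permutation p = 0.375).

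In VIM, the head held 3, 6, 0 and 5 events, the rod 13, 23, 6 and 8, and the tail 3, 7, 0 and 0 in replicates 1 to 4. The pooled densities of VIM were 42.8 events per kb in the head, 55.9 in the rod and 56.5 in the tail. Its tail was denser than its rod in replicates 1 and 2 and held no event in replicates 3 and 4. The log2 ratio of tail to rod was -0.51 ± 1.23 (SD, n = 4; exact permutation p = 0.5) and that of head to rod -0.58 ± 1.26 (exact permutation p = 0.5). Neither exceeded the spread between libraries, and both became positive when the position with the most cDNAs of each part was left out, at 0.24 and 0.12. Where a part held no event, its ratio rested on the 0.5 added to each count. With 1 added instead, the mean log2 ratios were -0.0059 for tail to rod and -0.29 for head to rod.

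Within libraries, the tail-to-rod ratio of NEFM was above that of VIM by 1.46 ± 1.23 on the log2 scale (SD, n = 4), and that of NEFL was above that of VIM by 2.11 ± 1.21, each in 4 of 4 libraries (exact permutation p = 0.13). These differences depended on the counting. NEFM minus VIM was 0.89 in 2 of 4 libraries with each position counted once, 0.82 in 3 of 4 with the highest position of each part left out, 1.14 in 3 of 4 with the rod lengthened and 0.95 in 4 of 4 with 1 added to each count. NEFL minus VIM was 0.71 in 3 of 4 with the rod lengthened (exact permutation p = 0.625), and 1.17 with each position counted once and 1.58 with 1 added to each count, both in 4 of 4. The ratio of NEFM minus that of NEFL was -0.65 ± 0.40 and below 0 in 4 of 4 libraries (exact permutation p = 0.13). This order depended on where the rod of NEFL was ended. With the rod lengthened by 10 codons at each end the difference was 0.42, and with each position counted once it was -0.29 and below 0 in 3 of 4 libraries.

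Since no part boundary was available for other transcripts, the coding sequence of each transcript was also split at its midpoint, a comparison chosen after seeing the data. The log2 ratio of the density in the latter part to that in the former part was 0.80 ± 0.63 (SD, n = 4) in NEFM, above 0 in 3 of 4 libraries, and 2.19 ± 1.65 in NEFL, above 0 in 4 of 4 and 1.46 without replicate 3. The latter part was denser in 4 of 4 libraries in 6.72% of the 1057 transcripts with at least 50 pooled coding events. Their median was -0.088, and NEFL ranked 14 and NEFM 182 by the ratio. The transcripts were not matched to the members in number of events. VIM had 0.23 ± 2.32 and was above 0 only in replicate 3, whose 6 events lay on 1 position. Without replicate 3 the ratio of VIM was -0.93.

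GANGA motifs were unevenly placed in the same parts. NEFM held 73, of which 39 were GAAGA, 33 GAGGA and 1 GACGA, with 0 in the head, 13 in the rod and 60 in the tail. NEFL held 0, 16 and 26 in head, rod and tail, NEFH 0, 12 and 52, INA 0, 13 and 8, and VIM 0, 13 and 0. The rods were thus alike, with 12 to 16 motifs each, and the members differed in the tail. Among the transcripts with at least 50 exonic events the median was 5.80 GANGA motifs per kb, and NEFM with 22.3, NEFL with 12.3 and VIM with 6.04 ranked 10, 108 and 759 of 1651.

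The motif overlaps in letters with the glutamate codons GAA and GAG. Of the coding GANGA motifs, 88.1% to 92.3% in the 5 members began at the first base of a codon, against 65.7% over all coding sequences. Glutamate took 26.4% of the tail codons of NEFM, 32.0% of those of NEFL and 23.4% of those of NEFH, and 15.6% and 16% of the rod codons of NEFM and NEFL. In VIM the share was 8.47% in the tail and 15.4% in the rod.

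An event was called near a motif when the first base of a GANGA motif lay no more than 5 nt before or 30 nt after the crosslinked base. In NEFM, 65.0% (95% exact interval 59.0 to 70.6%), 73.2% (69.7 to 76.4%), 68.9% (59.1 to 77.7%) and 71.9% (66.7 to 76.7%) of the exonic events were near a motif in replicates 1 to 4. All 4 intervals lay above the 44.5% of exonic positions of NEFM that are near a motif. They treat each event as independent, although the 103 events of replicate 3 lay on 24 positions. The mean excess was 25.2 ± 3.64 percentage points (SD, n = 4), in 4 of 4 libraries (exact permutation p = 0.13). Motif and window are those of the study's own motif search in the PR100 data, so this excess is not an independent test. In coding sequence only it was 20.6 ± 3.05 points, and with each position counted once 23.9 ± 1.73, both in 4 of 4.

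NEFL had fewer events but a like excess. Its shares were 45.5%, 60.7%, 40.0% and 57.8% in replicates 1 to 4, against 23.1% of positions, and the mean excess was 27.9 ± 9.87 points (SD, n = 4), in 4 of 4 libraries (exact permutation p = 0.13). The interval of replicate 3, 12.2 to 73.8%, held the share of positions and those of the other libraries did not. In coding sequence only, the excess of NEFL was 15.4 ± 14.6 points in 3 of 4 libraries (exact permutation p = 0.25), and with GAAGA alone it was 24.0 ± 22.9 points, also in 3 of 4. The share was above that of positions in 4 of 4 libraries in 14.4% of the 1651 transcripts. The median pooled excess of these transcripts was 6.85 points, and NEFL with 33.4 and NEFM with 26.4 ranked 44 and 107. These pooled values take in the UTRs.

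In VIM no excess was detectable beyond the spread between libraries. The share near a motif was 27.3%, 29.5%, 0% and 9.52% in replicates 1 to 4 against 15.7% of positions, above it in replicates 1 and 2 and below it in replicates 3 and 4. The mean excess of 0.847 ± 14.2 points (SD, n = 4) was within the spread between libraries (exact permutation p = 1), and its sign was negative without replicate 1, at -2.72, or without replicate 2, at -3.47. The excess was 6.38 points without replicate 3 and 3.20 without replicate 4. The pooled excess of VIM was 6.84 points and ranked 828 of the 1651 transcripts, whose median was 6.85. Of the 7 VIM positions with 3 or more events, 2 were near a motif and 5 were not. The windows shown include both of the former, in the rod with 3 and 4 events in replicate 2, and 2 of the latter, the rod position with 6 events in replicate 3 and the head position with 3 in replicate 2. In INA, 3 of the 9 exonic events were near a motif, all at the position shown for its rod, in replicate 1.

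**Figure D2:**
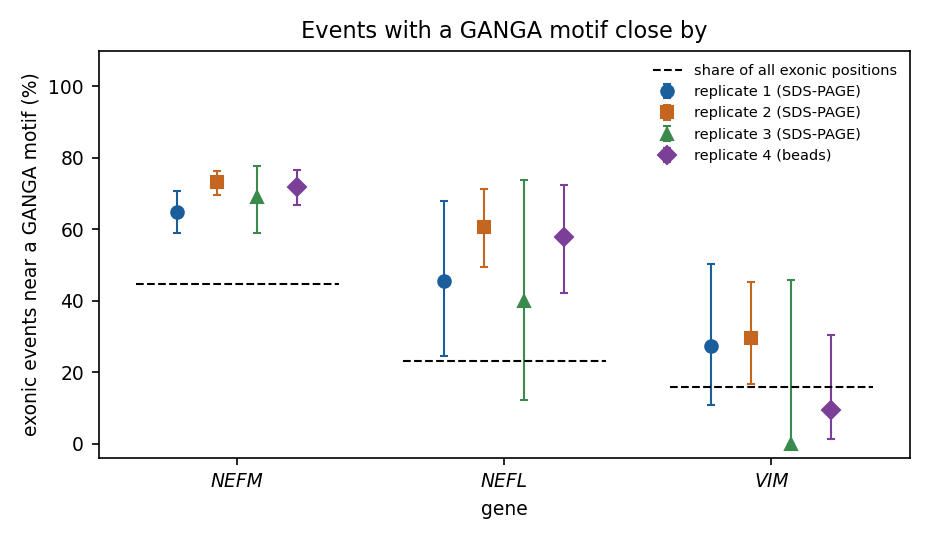
Share of exonic events with a GANGA motif within the window around the crosslinked base (vertical axis, percent) for NEFM, NEFL and VIM, with 1 symbol per library, 95% exact intervals as bars and the share of all exonic positions as a dashed line. NEFM lies at 65.0 to 73.2% above its line at 44.5%, while VIM lies on both sides of its line at 15.7%.

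Along the coding sequence of NEFM, windows of 50 codons held between 17 and 196 pooled events, apart from the last 16 codons, which held none. Codons 501 to 550 in the tail had 40, 97, 5 and 54 events in replicates 1 to 4, together with 15 GANGA motifs and 22 glutamate codons. No other window held as many pooled events or motifs, and codons 551 to 600 held 1 glutamate codon more. The window at codons 501 to 550 was the highest in replicates 1, 2 and 4 but not in replicate 3. A further rise spanned codons 651 to 800, with 118, 139 and 124 pooled events per window.

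Between the rises, codons 601 to 650 held 3, 7, 1 and 6 events in replicates 1 to 4, a low value in each library. This window and the next each hold 6 KSP repeats and 3 GANGA motifs, yet the next window, codons 651 to 700, held 21, 46, 6 and 45 events. In codons 601 to 650, 58.7% of the positions start a run of 30 nt that recurs exactly elsewhere in the NEFM transcript, against 5.33% in codons 651 to 700 and 0% in every other window. The authors kept only reads with a single place in the genome, and the part of these repeats in the low count was not tested. Codons 851 to 900 had 5, 10, 0 and 2 events with no such repeat and 3 GANGA motifs.

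Over the 18 full windows of NEFM, the events followed the number of GANGA motifs with Spearman's rho of 0.56, 0.72, 0.13 and 0.65 in replicates 1 to 4, given as a description because the windows share a message and a library. With glutamate codons the rho was 0.39, 0.65, 0.075 and 0.58, and with lysine codons 0.34, 0.45, 0.21 and 0.43. Which of these the events follow was not tested. Replicate 3 was again the one that differed. The rho between libraries ran from 0.41 to 0.88, with the 3 values that involve replicate 3 being the lowest. In NEFL the rho with GANGA motifs over 10 full windows was -0.15, 0.23, 0.022 and 0.44 in replicates 1 to 4. It was 0.17, 0.37, -0.30 and 0.55 with glutamate codons, and -0.13, 0.62, -0.24 and 0.38 with lysine codons. Codons 151 to 200 of NEFL had 6 GANGA motifs and 3 pooled events. Codons 451 to 500 held the most, 39 pooled events with 13 GANGA motifs, of which 26 came from replicate 2, 12 from replicate 4, 1 from replicate 1 and 0 from replicate 3.

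**Figure D3:**
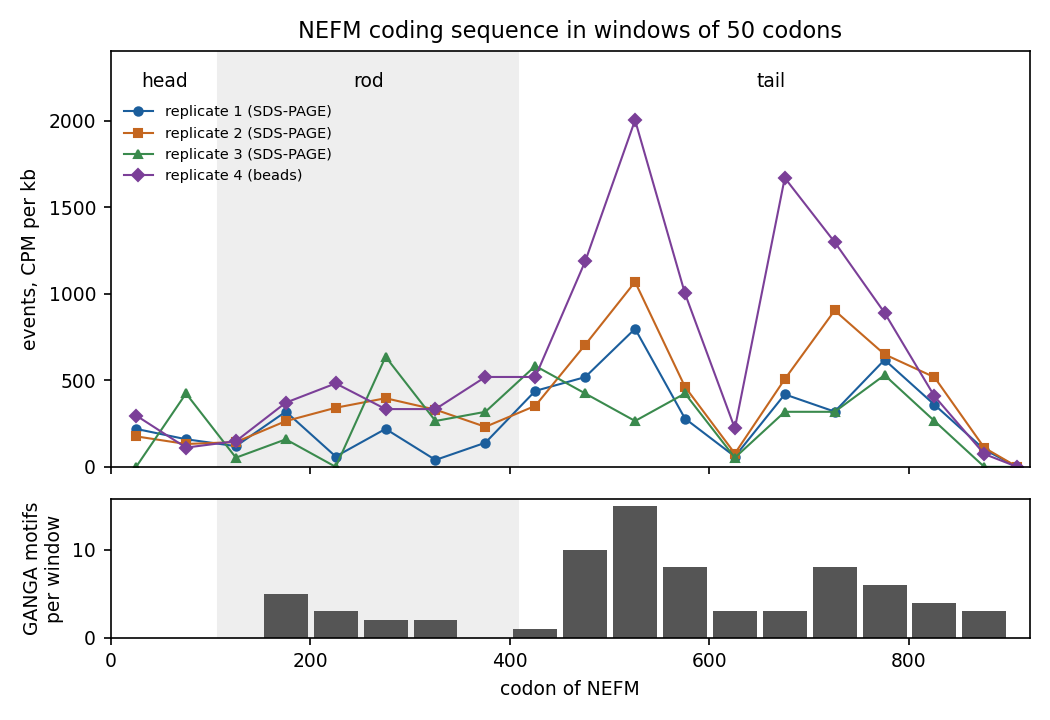
Events along the NEFM coding sequence in windows of 50 codons, in CPM per kb, with 1 line per library (upper panel), and the number of GANGA motifs that begin in each window (lower panel). The rod is shaded. The lines of replicates 1, 2 and 4 are highest over codons 501 to 550, where the motifs are densest with 15, and every library is low over codons 601 to 650.

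Positions near and away from motifs were counted within each part, which was chosen after seeing the data. This does not fully separate tail and motifs. The NEFM tail has 60 motifs and 1115 nt near a motif, and the rod 13 and 342, so motifs per near nt still differ. In the tail of NEFM, positions near a motif held 163, 441, 55 and 212 events in replicates 1 to 4 and positions away from motifs 31, 42, 5 and 36, which is 781 against 279 pooled events per kb. The log2 ratio was 1.46 ± 0.52 (SD, n = 4), above 0 in 4 of 4 libraries. In the rod the densities were 374 and 292 events per kb, and the log2 ratio of 0.46 ± 0.56 was above 0 in 3 of 4 libraries. Without replicate 3, the ratio in the rod was 0.20.

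Read the other way, the tail of NEFM was denser than the rod near motifs, by 0.96 ± 0.65 on the log2 scale (SD, n = 4) in 4 of 4 libraries (exact permutation p = 0.13). Away from motifs, tail and rod differed by -0.047 ± 0.65 and the tail was denser in 2 of 4 libraries (exact permutation p = 0.75), with a change of sign to 0.14 without replicate 2 or without replicate 3. In NEFL the tail held 66 pooled events near motifs and 9 away from them, and the rod 25 and 25, on 311 and 130 nt of tail and 444 and 456 nt of rod. Replicate 3 went against the other libraries in both parts of NEFL. The log2 ratio of near to away was 0.77 ± 3.82 in the tail and 0.59 ± 1.76 in the rod, and without replicate 3 these were 2.68 and -0.29.

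**Figure D4:**
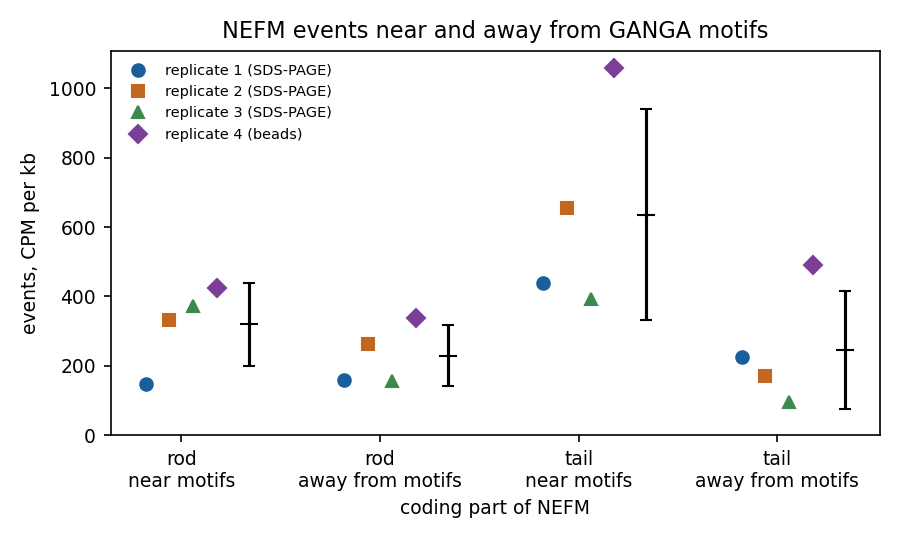
Density of NEFM events in CPM per kb (vertical axis) in the rod and the tail, at positions near and away from GANGA motifs, with 1 symbol per library and the mean ± SD beside them. Tail positions near motifs lie at 392 to 1058 CPM per kb, above tail positions away from motifs in every library.

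Some positions on NEFM were hit in more than 1 library. Its 1408 exonic events lay on 654 positions, of which 131 were hit in 2 or more libraries and held 562 events, or 39.9%, and 1 was hit in all 4. The position with the most events, chr8:24917959-24917959 in codon 702, held 1, 12, 0 and 5 events in replicates 1 to 4. The position hit in all libraries, chr8:24917304-24917304 in codon 483, held 1, 6, 3 and 4. In NEFL 3 of 106 positions were hit in 2 or more libraries, and in VIM and INA none of 64 and 5. These messages had far fewer positions hit, so their shares cannot be set against that of NEFM, and no share expected by chance was computed.

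The authors' significant clusters, called by iCount on the pooled libraries, numbered 23 on NEFM, 5 on NEFL, 2 on VIM and 0 on INA and NEFH, so that 3 of the 5 members had at least 1, against 9.71% of the genes with any event. The smallest cluster held 10 events, while the median over genes with any event was 8 events. Genes with few events, among them INA with 9 and NEFH with 1, could thus hold no cluster. Of the 23 clusters on NEFM, 16 had their highest position in the tail, 6 in the rod and 1 in the head. They held 563 events, or 39.5% of those in the gene, and 14 of them overlapped a cluster in the list of at least 1 single library with events there, and 4 did so in 2 or more. The largest, chr8:24917923-24917985 in the tail, held 23, 80, 6 and 51 events in replicates 1 to 4. On NEFL, 3 clusters lay in the tail, 1 in the rod and 1 in the 5′ UTR, and the clusters held 62.4% of its events. The VIM cluster with the most events, chr10:17229857-17229957 in the rod, held 4, 11, 0 and 2 and includes the rod positions with 3 and 4 events in replicate 2 whose windows are shown.

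The base at the crosslink differed between libraries. In NEFM it was A for 73 of 277 events in replicate 1, 264 of 697 in replicate 2, 9 of 103 in replicate 3 and 116 of 331 in replicate 4, that is 26.4%, 37.9%, 8.74% and 35.0%. A makes up 31.7% of the transcript. Replicate 3 was the lowest of the 4, and its base shares rest on 24 positions. Over all coding transcripts A took 23.7%, 27.5%, 19.6% and 26.9% of events in replicates 1 to 4, again lowest in replicate 3. T took 30.1% of the NEFM events in replicate 3, against 15.5%, 12.8% and 12.4% in replicates 1, 2 and 4. In NEFL the share of A was highest in replicate 3, at 40%, from 10 events on 2 positions.

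Among 14 other intermediate filament genes, 11 had events, and only LMNB2, which encodes lamin B2 of the nuclear lamina, had at least 200. It held 82, 188, 22 and 76 events in replicates 1 to 4, or 289 ± 105 CPM (SD, n = 4), and 27% of its exonic events were near a motif against 21.2% of positions. The other lamins, LMNB1 and LMNA, held 153 and 63 pooled events, and 39.7% of those on LMNA were exonic. The median over the 11 genes with events was 5 pooled events, against 8 over all genes with any event, and PRPH, the intermediate filament peripherin of peripheral neurons, DES of muscle and KRT19 of epithelia had none.

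Of 7 genes for the plakins and related linkers that join intermediate filaments to other structures, all had events, with a median of 118. At least 200 were found on 3 of them, against 2.62% of the genes with any event. These were DST with 110, 129, 24 and 44 events in replicates 1 to 4, MACF1 with 74, 139, 8 and 38, and PLEC with 34, 116, 31 and 54. The counts are of whole genes. Per kb of transcript, DST, MACF1 and PLEC held 4.41, 3.94 and 8.92 pooled exonic events, against 44.9 on NEFL and 43.2 on VIM. PPL, EVPL and EPPK1 held 6, 1 and 4 pooled events. Unlike on NEFM, where 98.7% of the events were exonic, the exonic shares on DST, MACF1 and PLEC were 35.5%, 37.1% and 56.2%, whereas that on DSP, the next linker with 118 events, was 94.1%. Their pooled shares near motifs exceeded those of positions by 7.54, -0.74 and 0.19 percentage points, and that of DSP, which encodes desmoplakin, by 12.8.

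By the size of the difference in log2(CPM + 1) over the 4 libraries, the coding gene nearest to NEFM among 703 with at least 200 events was NCL, which encodes the nucleolar protein nucleolin, with a root mean square difference of 0.20. EEF2, encoding a translation elongation factor, and PRRC2B followed with 0.54 and 0.58. NCL had 946, 1260, 859 and 2383 CPM in replicates 1 to 4 and NEFM 856, 1152, 859 and 1865, both highest in replicate 4. The genes nearest to VIM were THRAP3, SF3B2 and FUBP1, at 0.87, 0.87 and 0.88, and all lay above VIM in pooled events, since only genes with at least 200 were compared.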

How the data were processed

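PR100-FLAG iiCLIP was analysed in 4 libraries of HEK293T cells. The authors demultiplexed the reads, collapsed PCR copies by random barcode, mapped them with STAR to GRCh38 (Gencode 27, up to 2 mismatches) and kept unique alignments. The version of STAR is not given in the sources used here. The deposited values are raw counts, 1 for each unique cDNA at a position of a strand, without normalisation, and cluster files hold summed counts of positions significant at an FDR below 0.05. All libraries belong to 1 group, and libraries of the controls and GA100 are not analysed here.

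Counts were placed on GENCODE 44 genes by strand. Depth was 334057, 604816, 125694 and 179636 events. CPM used library totals. Rod boundaries were found in the translated canonical transcripts. Ratios had 0.5 added to counts and were computed for members with at least 50 coding events. Signs of the library values were permuted in exact two-sided tests, whose p cannot go below 0.13 with 4 libraries, so no comparison could pass 0.05. Intervals are 95% Clopper-Pearson. The excess near motifs and the tail-to-rod ratio of NEFM were checked on simulated events, drawn independently and without stacking. The permutation of signs was checked only on short made-up sets of values.

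The members and gene lists were chosen with earlier results of these data known. Genes named beside the members were list members with at least 200 events (or the 3 with most) and the 3 genes most like NEFM and VIM. LMNB1, LMNA, PRPH, DES, KRT19 and DSP were named after their values were seen. Alternatives changed the unit counted, rod boundaries, count added, motif, window, transcript region, high positions and libraries. Python 3.11.15, numpy 2.4.6, scipy 1.17.1, pysam 0.24.0 and matplotlib 3.10.9 were used.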

Additional observations from a re-analysis of the deposited data

Results flagged for a closer look

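In 29 sets of 4 library values checked for a single outlying library, 4 were found, where chance gives about 1 in 20. The 1 event of NEFH, 2.99 CPM in replicate 1, stood against 0 in the other libraries, which is below the limit of 3 events. In NEFL, replicate 3 had a log2 ratio of events near to events away from motifs of 3.21 in the rod and -4.96 in the tail, from 4 and 6 events that each lay on 1 position. In VIM, the log2 ratio of the latter to the former part of the coding sequence was 3.70 in replicate 3, from 6 events on 1 position.

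Events on the strand opposite to the members were outside the comparisons above. The span of NEFM had 5 such events, 3, 2, 0 and 0 in replicates 1 to 4, against 1426 on its own strand, and the opposite strand holds the gene ENSG00000272163. The span of INA had 5, namely 0, 4, 0 and 1, against 9 on its own strand, and the opposite strand holds NT5C2.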

How the results depend on the processing

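Of 159 alternatives for 21 values that have a sign, 145 kept it and 14 changed it, and no test with 4 libraries can pass the threshold. A further 56 alternatives for 8 CPM values and coding shares, which cannot change sign, moved them by less than 1 SD. The alternatives that changed the sign concerned values within the spread between libraries or the order of NEFM and NEFL. For VIM, the tail-to-rod and head-to-rod ratios were 0.24 and 0.12 with the highest position of each part left out. The excess of VIM events near motifs was -1.21 points with each position counted once, -0.67 with GAAGA alone, -2.11 with a window of 30 nt on both sides and -3.48 in coding sequence only. The tail-to-rod ratio of NEFM minus that of NEFL was 0.42 with the rod lengthened by 10 codons at each end. The ratio of the latter to the former part of the VIM coding sequence was -0.23 with each position counted once. The causes were not tested beyond the position at codon 405 of NEFL.

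With 1 library left out at a time, the mean CPM ranged from 956 to 1292 in NEFM, 96.9 to 159 in NEFL, 0 to 0.998 in NEFH, 6.40 to 13.8 in INA and 67.3 to 99.6 in VIM. Coding shares ranged from 91.5 to 94.1% in NEFM, 76.8 to 88.4% in NEFL and 67.0 to 83.7% in VIM. The log2 tail-to-rod ratio ranged from 0.84 to 1.14 in NEFM, 1.58 to 1.61 in NEFL and -0.91 to -0.095 in VIM, and the head-to-rod ratio from -0.66 to -0.26, -0.97 to -0.29 and -1.05 to -0.026. The excess near motifs ranged from 24.1 to 26.8 points in NEFM, 24.7 to 31.6 in NEFL and -3.47 to 6.38 in VIM, with -2.72 without replicate 1. Differences in the tail-to-rod ratio ranged from -0.76 to -0.48 for NEFM minus NEFL, 0.93 to 1.89 for NEFM minus VIM and 1.70 to 2.51 for NEFL minus VIM. Of the values added after seeing the data, the near-to-away ratio of the NEFL rod was -0.29 without replicate 3, the tail-to-rod ratio of NEFM away from motifs was 0.14 without replicate 2 and 0.14 without replicate 3 (range -0.24 to 0.14), and the midpoint ratio of VIM was -0.93 without replicate 3 (range -0.93 to 0.66).

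Replicate 3, with 125694 events, limits NEFL and VIM most, since they had 10 and 6 events there, on 2 positions and 1. INA had 1 event in each of replicates 2 and 4. No paired analysis between conditions was possible because all libraries belong to 1 group. Genes and parts of genes were compared within each library.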

Other observations

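None of the cell type markers reached 200 pooled events. The 7 neuronal genes had 2 to 57 pooled events and a median of 26, against 8 over all genes with any event, with RBFOX3 highest at 57, of which 2 were exonic, and 40 on SNAP25, of which 3 were exonic. The 3 genes of the kidney lineage had 3 to 21 events and a median of 20. Of these, PAX2 had 21 with 3 exonic, LHX1 20 with 13 exonic and PAX8 3 with 1 exonic. The 4 fibroblast genes had 1 to 7 events and a median of 3.5. Events do not measure expression, and these values do not show which of the genes the cells express.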
